A study of Mus musculus with 12 samples.

Results

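Of the 58558 ATAC-seq peaks of mouse brown fat, 1231 were wide and distal. They spanned at least 1500 bp, and the authors' annotation placed them more than 1000 bp and at most 50000 bp from the nearest transcription start site. The rule used position and width and no difference between genotypes, and it took a peak whether or not inguinal fat had a peak there. ATAC-seq uses a transposase that inserts into exposed DNA, and reads over a region therefore measure how accessible its chromatin is. The brown fat came from 3 flox and 3 AKO mice of the C57BL/6 strain, with each mouse kept as its own sample. Flox mice carry floxed alleles of BAF60a (gene Smarcd1). AKO mice carry the same alleles and an Adiponectin-Cre transgene, which deletes the gene in adipocytes of all fat depots and leaves it in the other cells of the tissue. Inguinal fat (iWAT) came from flox and AKO mice acclimated to cold. Its pads were pooled by genotype and split into 3 aliquots, so its samples are technical repeats of 1 pool per genotype. Each sample combined more than one transposase reaction.

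BAF60a is a subunit of the SWI/SNF complexes, which use ATP to slide or evict nucleosomes and are brought to chosen sites by transcription factors. Distal open regions often work as enhancers, and wide ones tend to hold several factor sites side by side. In brown adipocytes such regions are known to bind PPARγ, C/EBP and EBF factors near genes of fat oxidation, lipid storage and heat production.

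Reads in peaks came to between 6336670 and 27500738 per brown fat sample and between 4066720 and 6691161 per inguinal sample. At Smarcd1 itself, the start site peak held 485, 456 and 369 normalized reads in the flox mice and 412, 417 and 497 in AKO mice. A peak 2030 bp downstream held 136, 201 and 185 in flox and 23.7, 57.9 and 26.9 in AKO mice, so every brown fat sample matched its label at the targeted gene. Normalized reads are the authors' reads per peak divided by a size factor of the sample. The first principal component of all brown fat peaks (PC1) took 55.6% of the variance and ran from -98.2 in flox 1 and -41.8 in flox 2 through -0.617 in AKO 1, 13.5 in AKO 3 and 14.6 in flox 3 to 112 in AKO 2. Flox 1 had the most reads and AKO 2 the fewest, and PC1 was a covariate in the brown fat model. Summed normalized reads at the start sites of 8 adipocyte marker genes ranged from 8960 to 11411 in flox and from 6356 to 8637 in AKO mice. At the start sites of the endothelial markers that had a peak, 4 of 12, they ranged from 528 to 580 in flox and from 624 to 823 in AKO mice. Fibroblast and preadipocyte markers had a peak for 4 of 8 genes (681 to 794 against 607 to 1028), mural and Schwann cell markers for 4 of 8 (1004 to 1287 against 776 to 956) and skeletal muscle markers for 1 of 11 (98.8 to 164 against 143 to 234). None of 10 macrophage and lymphocyte markers had one, among them Ptprc, Adgre1 and Cd3e. The part of such shifts in the differences given here was not tested, and fewer adipocyte nuclei cannot be told apart from less accessible chromatin in each nucleus.

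Windows of 3 wide distal peaks are printed because these peaks were among those with the lowest p for a difference between genotypes among the members with less signal in AKO mice. The bases are those of GRCm38, plus strand. Capitals mark a DR1 match, which is 2 copies of AGGTCA 1 base apart, on either strand, with at most 2 mismatches in all. DR1 is the arrangement of half-sites bound by PPARγ with its partner RXR. Where a peak held no DR1 match, the window was centred on the peak. The peak annotated to Ppp2r1b is at chr9:50834076-50835876, in an intron of Alg9, the window at chr9:50835213-50835412. The peak upstream of Ucp1 is at chr8:83284326-83285966, with the window at chr8:83285678-83285877, and the peak downstream of Ucp1, beyond the 3′ end of the gene by 277 bp, is at chr8:83298730-83300383, with the window at chr8:83299457-83299656.
Ppp2r1b peak in Alg9 intron: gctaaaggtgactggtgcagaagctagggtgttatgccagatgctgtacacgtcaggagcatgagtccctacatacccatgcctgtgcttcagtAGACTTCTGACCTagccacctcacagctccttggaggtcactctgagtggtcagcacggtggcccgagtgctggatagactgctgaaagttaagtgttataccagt
Ucp1 upstream peak: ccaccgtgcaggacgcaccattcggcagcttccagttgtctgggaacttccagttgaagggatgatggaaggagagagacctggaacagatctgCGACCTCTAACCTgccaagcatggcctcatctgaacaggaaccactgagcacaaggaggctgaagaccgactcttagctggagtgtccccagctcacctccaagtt
Ucp1 downstream peak: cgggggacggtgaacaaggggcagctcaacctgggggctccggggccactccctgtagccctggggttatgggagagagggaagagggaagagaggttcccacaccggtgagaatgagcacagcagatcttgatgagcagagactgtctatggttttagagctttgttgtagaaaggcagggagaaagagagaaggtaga
The first 2 windows each hold the single DR1 match of their peak, each with 2 mismatches, and the downstream Ucp1 peak holds none. Outside the windows, C/EBP words (TTGCNNAA) lie in all 3 peaks. In the downstream Ucp1 peak, 24.5% of the 32-base words occur elsewhere in the genome, against 0% in the other two, so that reads there can be harder to place.

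The wide distal peaks had a median width of 1784 bp and reached 4954 bp. Of the 1231, 396 spanned at least 2000 bp and 36 at least 3000 bp. By the middle of the peak, 615 lay in an intron and 139 in an exon of a coding gene, and 477 lay between coding genes (GENCODE annotation of GRCm38). The median distance to the start site was 14026 bp. Upstream peaks numbered 512 and downstream peaks 719, and 250 lay within 5000 bp. The annotated gene was also the coding gene with the nearest start site for 916 of them. The peaks just inside the width limit, 1500 bp each, lay near Pnp2 and Wnt8b, with flox and AKO means of 301 and 270.1 normalized reads at Pnp2 and 651 and 555 at Wnt8b. Those just outside, 1499 bp each, lay near Cd300a (154 and 187) and Pemt (784 and 689.8).

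Wide distal peaks were strong. Their median was 570 normalized reads, against 102 in the 30030 narrower distal peaks, 372 in the 12563 peaks within 1000 bp of a start site and 125 in all peaks. Per kb, which takes out the width, the medians were 308 in wide distal, 243 in narrower distal and 392 in start site peaks. Individual wide distal peaks ranged from 79.5 to 3098 normalized reads per kb. The median over members was 604, 569 and 578 normalized reads in flox 1 to 3 and 558, 525 and 541 in AKO 1 to 3, so that the sample medians of the groups did not overlap. Every member had at least 63 reads in every brown fat sample, and all 1231 therefore passed a limit of 10 reads. Their share of all reads in peaks was 6.49%, 6.51% and 6.83% in flox mice, and 6.45%, 6.55% and 6.23% in AKO mice. As means these are 6.61% ± 0.191 and 6.41% ± 0.164 (SD, n = 3 each), and the groups overlapped. In sequence, the median GC content was 51.0% in wide distal, 51.5% in narrower distal and 62.3% in start site peaks.

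The number of genes with several wide distal peaks was small. The 1231 peaks belonged to 1102 genes, of which 981 had 1, 115 had 2, 5 had 3 and 1 had 5. The gene with 5 was Pisd-ps1, a pseudogene on chromosome 11. For all 5 the nearest start site of a coding gene was that of Sfi1, and most had their middle within Sfi1. Those with 3 included Lncppara (a long noncoding RNA beside Ppara), Gm5627, Rgs3 (a regulator of G-protein signalling) and Coq8a (a factor of coenzyme Q synthesis). By summed width, the genes with 2 that followed included Bcl9l, C130026I21Rik, Anp32a, Ctif, Nr4a2, Slc25a51, Prkar2b, Hoxa4, Idh3a, Isca2, Tspan12, Ly6e and Fgd2. They include Nr4a2, an orphan nuclear receptor, Slc25a51, the NAD carrier of mitochondria, Prkar2b, the regulatory subunit of protein kinase A that prevails in fat, Idh3a, a catalytic subunit of a citric acid cycle dehydrogenase, and Isca2, which takes part in building iron-sulfur clusters. Both peaks annotated to Isca2 lay in introns of Ltbp2. For the Gm5627 peaks the nearest coding start site was that of Amotl2.

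Pisd-ps1 also held the 3 wide distal peaks with the most normalized reads per kb. The strongest, at chr11:3131991-3135800, held 4845, 7362 and 13078 normalized reads in flox 1 to 3 and 10733, 23722 and 11088 in AKO 1 to 3. The summed values of all 5 peaks ran from 13936 in flox 1 to 62405 in AKO 2. They made up 1.49% of the normalized reads in wide distal peaks in flox 1 and 7.79% in AKO 2, the samples at the ends of PC1. Their fitted log2 differences with PC1 in the model were between -0.33 and -0.09, while without PC1 they were between 0.54 and 0.87 and the AKO means were 145% to 180.1% of the flox means, so that their direction depended on that covariate. At these peaks, from 10.2% to 24.3% of their 32-base words occur elsewhere in the genome. The wider C130026I21Rik peak, 4706 bp, had the same order of samples at its ends, at 674 normalized reads in flox 1 against 3376 for AKO 2, and 60.6% of its 32-base words occur elsewhere. The widest peak of all lay at Plin4, a coat protein of lipid droplets, at chr17:56099315-56104268 with its middle in an exon. It held 6277, 5865 and 5811 normalized reads in the flox mice and 7267, 4850 and 6103 in AKO mice, with overlapping groups.

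Among the 20 genes with most peaks, Idh3a had both of its peaks lower in every AKO than in every flox mouse. The Idh3a peak upstream of the gene held 1249.9, 1476 and 1219.8 normalized reads in the flox mice and 842, 877 and 836 in AKO mice. The Idh3a peak 1004 bp downstream of the start site, in an intron, held 1805, 1663 and 1347 against 1159, 1029.5 and 1274. At Lncppara, the middle peak held 1994.5, 1429 and 1447.5 normalized reads in the flox mice and 1274, 1151 and 1343 in AKO mice, with no overlap, while the groups overlapped at its other peaks. At Coq8a, the groups did not overlap at the peak 31974 bp downstream, in an exon of Cdc42bpa, which held 272, 464 and 727 in flox and 868, 757 and 762 in AKO mice and was the one higher peak of this kind. With PC1 in the model, the fitted log2 differences were -0.64 at the upstream and -0.23 at the intronic Idh3a peak. They were -0.12 at the middle Lncppara peak and 0.39 at this Coq8a peak. The unadjusted limma p was 0.0123, 0.244, 0.552 and 0.332 in that order. Of all 48 peaks of the 20 genes, the groups did not overlap at 9 with lower and 1 with higher AKO values. Among all brown fat peaks the shares were 8.84% lower and 8.77% higher. Among all 1231 members these shares were 18.7% and 4.22%, so the lower count was near that of the members as a whole. The median fitted log2 difference of the 48 was -0.12.

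**Figure D1:**
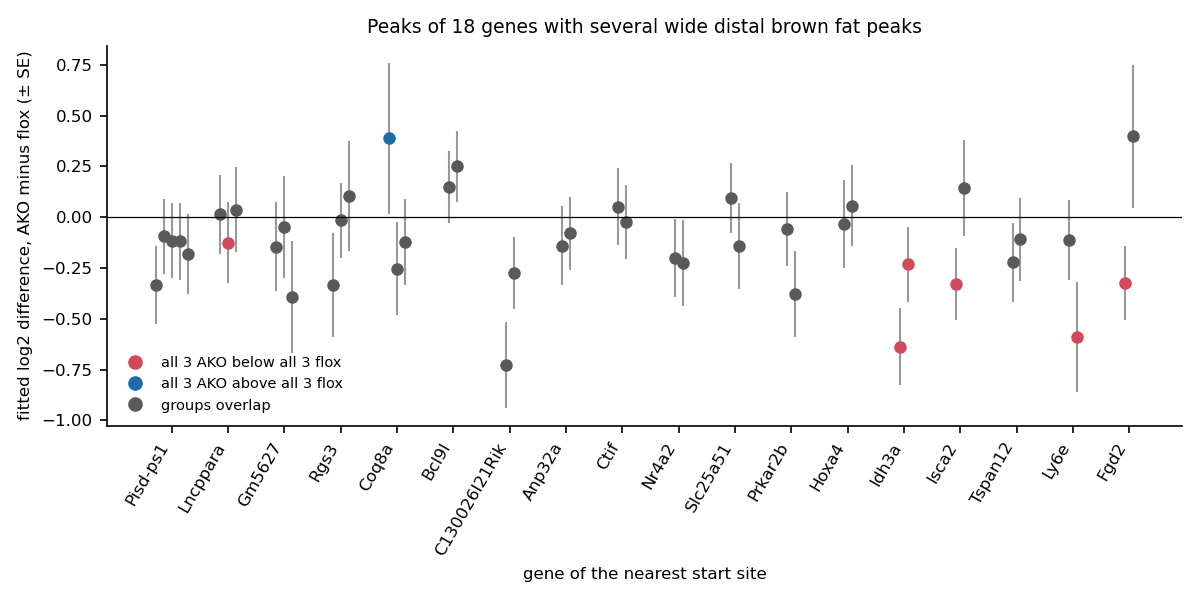
The fitted log2 difference between AKO and flox brown fat (y axis, with the standard error) for each wide distal peak of 18 of the 20 genes with the most of them (x axis). Red points have all 3 AKO values below all 3 flox values, the blue point has them all above, and grey points have overlapping groups. A C130026I21Rik peak, at -0.73 with PC1 in the model but 0.40 without it, and the upstream Idh3a peak, at -0.64 with and -0.62 without PC1, lie lowest.

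No wide distal peak passed the test across all 58558 peaks, limma on log2(normalized reads + 1) with PC1 and an adjusted p under 0.1 after Benjamini-Hochberg adjustment. The same test called 0% of all peaks in either direction. The smallest adjusted p among members was 0.417. At an unadjusted p under 0.05, 62 of the 1231 members (5.04%) were lower in AKO mice, against 5.59% of all peaks, and 7 (0.569%) were higher, against 3.46% of all peaks. With DESeq2 and the same PC1 on the recovered whole reads, 19 members passed an adjusted p of 0.1 with lower values and 0 with higher values, while 0.217% and 0.0803% of all peaks did so. edgeR called 14 members, all lower, against 0.114% lower and 0.029% higher of all peaks, and limma-trend 11, all lower, against 0.0751% and 0.0154%. The 19 are 1.54% of the members.

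Groups that did not overlap were more often lower than higher among wide distal peaks. All 3 AKO values were below all 3 flox values at 230 members, or 18.7%, and above them at 52, or 4.22%, and the groups overlapped at 949. These counts compare normalized reads and do not take PC1 into account. In these counts weaker members went the other way. Between 100 and 200 normalized reads, 1 of 29 was lower and 3 higher. Between 200 and 400, 25 of 325 were lower and 31 higher. With PC1 in the model, the median fitted log2 difference of these weaker members was still below 0, at -0.12 and -0.05 in the 2 ranges. The start site peaks gave 6.08% lower and 9.91% higher, the narrower distal peaks 8.66% and 8.98%, and peaks beyond 50000 bp 10.7% and 7.74%. In wide distal, narrower distal and start site peaks the lower share rose with signal between 100 and 1600 normalized reads, so the classes were also compared within ranges of signal. Between 400 and 800 normalized reads, the lower share was 19.7% of 528 wide distal, 20.05% of 1671 narrower distal and 7.22% of 3962 start site peaks. Between 800 and 1600 it was 26.7% of 288, 30.6% of 232 and 11.05% of 1720. Above 1600 it was 37.7% of 61, 8.33% of 12 and 21.1% of 175. The lower share of wide distal peaks was thus above that of start site peaks in each of these ranges, and above that of narrower distal peaks only in the top range, which held 12 of the latter. In peaks beyond 50000 bp of a start site the lower share was 25.1% of 646, 43.5% of 115 and 0% of 8 in the same ranges. It was above that of wide distal peaks except in the top range, so a high lower share was not particular to wide distal peaks. These shares were not tested between classes. The median fitted log2 difference was -0.05 over the members and 0.01 over all peaks. Leaving out PC1 it was -0.11 and -0.01, and without flox 3 the median of the members was 0.01. Scaled to total reads in peaks, 181 members were lower and 66 higher without overlap. With fewer mice, groups separate more easily, and the counts moved most to 373 lower without AKO 1 and, for higher values, to 178 without flox 3, 103 without AKO 1 and 96 without AKO 3.

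**Figure D2:**
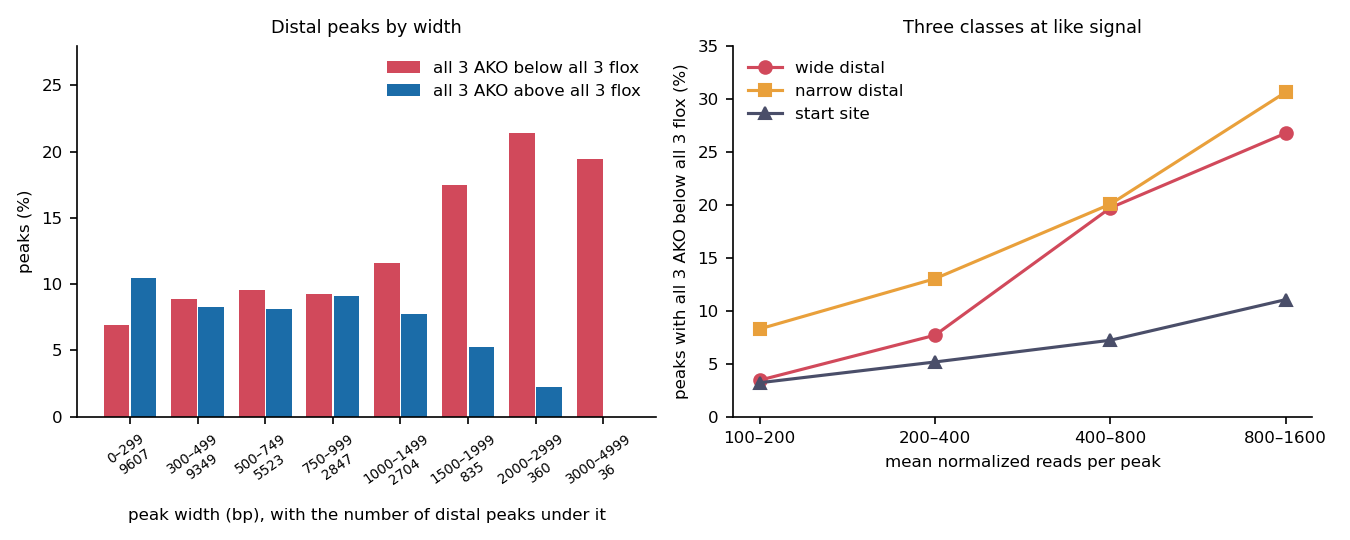
Left, share of distal brown fat peaks (1001 to 50000 bp from a start site) with all 3 AKO values below (red) or above (blue) all 3 flox values, by peak width on the x axis. Right, the share with all 3 AKO values below, by mean normalized reads on the x axis, for wide distal (circles), narrower distal (squares) and start site peaks (triangles). The lower share is 17.5% at 1500 to 1999 bp and 21.4% from 2000 to below 3000 bp on the left, and on the right the lines of both distal classes lie close together from 400 to 800 reads (19.7% and 20.05%). Peaks above 1600 reads and peaks beyond 50000 bp of a start site are not drawn.

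The wide distal peak with the lowest p lay in an intron of Alg9 and was annotated to Ppp2r1b, a scaffold subunit of protein phosphatase PP2A. It held 2025, 1886 and 1692 normalized reads in the flox mice and 853, 664 and 757 in AKO mice. The highest AKO value lay under the lowest flox value, and the AKO mean was 40.6% of the flox mean. The fitted log2 difference was -1.09 ± 0.174 (SE, adjusted p = 0.417 in limma, 1.37e-10 in DESeq2). This peak holds the first of the printed DR1 matches. The second wide distal peak of Ppp2r1b, in its intron 28265 bp downstream, held 2013 ± 371 and 1579.5 ± 299 normalized reads (mean ± SD, n = 3 each), with a fitted log2 difference of 0.02.

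Both wide distal peaks of Ucp1, the uncoupling protein that turns the mitochondrial proton gradient into heat, were lower in AKO mice. The upstream peak, at -5202 bp from the start site, held 1649, 1605 and 1158 normalized reads in the flox mice and 610.3, 462 and 418 in AKO mice. The peak beyond the end of the gene held 1629, 1143 and 952 in flox and 312, 332 and 227 in AKO mice. At either peak the highest AKO value was well below the lowest flox value, and the AKO means were 33.8% and 23.4% of the flox means. The fitted log2 differences were -1.31 ± 0.247 and -1.93 ± 0.318 (SE), the latter the largest decrease among all members. The DESeq2 adjusted p was 1.19e-07 upstream and 0.00260 downstream, and limma gave 0.417 for both. Neither peak overlapped an inguinal peak.

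The peak annotated to Pfkfb3, a kinase that makes the activator of phosphofructokinase, lay 411 bp beyond the 3′ end of that gene in the annotation used here. It held 1001, 976 and 978 normalized reads in the flox mice and 453, 637 and 535 in AKO mice, again without overlap, with a fitted log2 difference of -1.03 ± 0.202 (SE).

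Of the 10 members with less signal and the lowest p, 5 more were near Cyp4a31, Ryr2, Uvrag, A530050N04Rik and Dusp10. The Cyp4a31 peak held 357, 611 and 583 normalized reads in the flox mice and 259.8, 284 and 132 in AKO mice, and 45.6% of its 32-base words occur elsewhere. Its fitted log2 difference was -1.69, and DESeq2 did not call it (adjusted p = 0.172). The Ryr2 peak, in an intron of that calcium release channel gene, held 443, 543 and 790.4 in flox and 372, 402 and 258 in AKO mice. The peak annotated to Uvrag lay in an intron of Dgat2, whose enzyme makes triglycerides, and held 1371, 1363 and 1629.9 in flox and 774, 1031 and 972 in AKO mice. Groups did not overlap at any of these. The A530050N04Rik peak held 1788, 1766 and 1523 in flox and 969, 715 and 712 in AKO mice and lay between Ppargc1b, 46847 bp to the left, and Arhgef37, 42796 bp to the right. At the Dusp10 peak the groups overlapped, with 348, 502 and 572 in flox and 268, 377 and 348.3 in AKO mice.

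The 10 members with more signal and the lowest p were less marked. They included peaks near Dhrs3, Mir326, Cox8a, Mir21a, Zbp1, Mir7661, Fam109a, Psma3 and Tubb6. Their fitted log2 differences ran from 0.42 to 0.95 with an unadjusted limma p between 0.0194 and 0.0584, and neither limma nor DESeq2 called any of them. Without PC1, the differences of the 9 named here ran from 0.03 at Psma3 to 0.60 at Mir7661, and the AKO means of Psma3, Mir21a and Cox8a were 102%, 103% and 104% of the flox means. At Dhrs3, a retinal reductase gene, the values were 933, 638 and 642 normalized reads in the flox mice and 1014, 689.5 and 864 in AKO mice. At Mir21a, the gene of a microRNA, they were 791, 391 and 323 in flox and 685, 409 and 457 in AKO mice. Groups overlapped at both of these genes. The Mir7661 peak, in an intron of Itpr1, was the exception among the 10, with 252, 222 and 285 in flox and 414, 394 and 341 in AKO mice and no overlap.

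**Figure D3:**
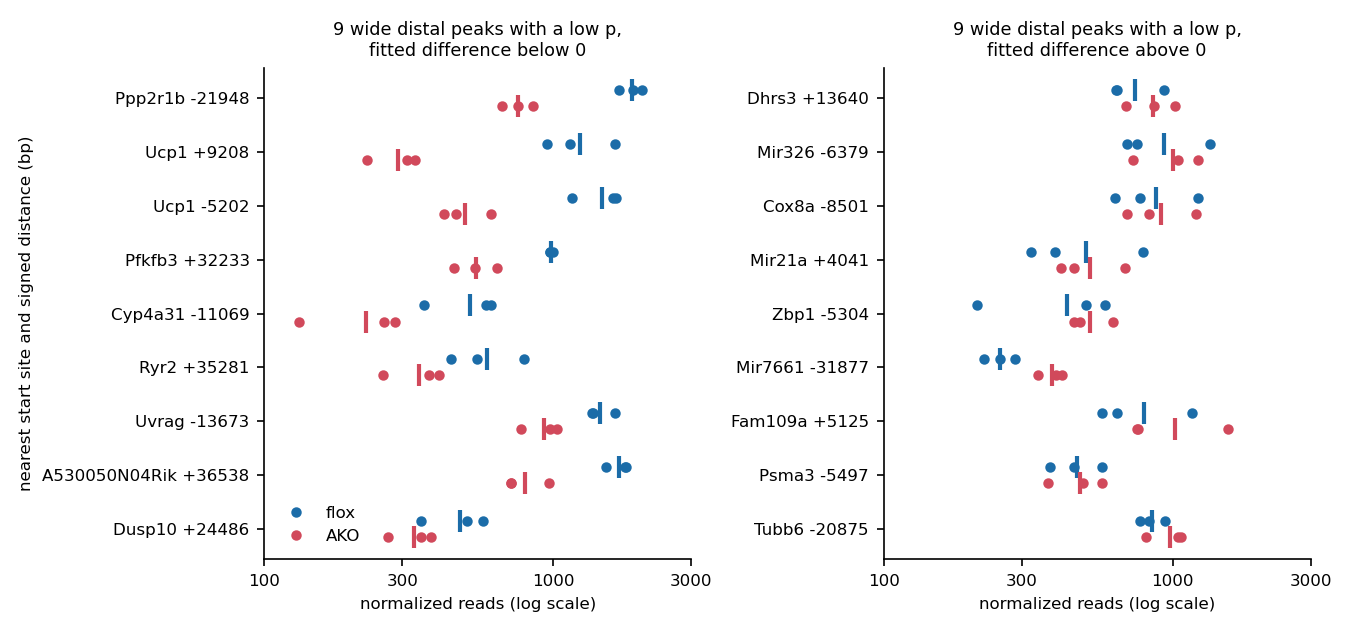
Normalized reads per mouse (log scale on the x axis) at wide distal peaks from the 10 with the lowest p and a fitted difference below 0 (left, 9 shown) or above 0 (right, 9 shown). Points are single mice, flox in blue and AKO in red, and bars are group means. On the left the groups are apart at all peaks except Dusp10, and on the right they overlap at all except Mir7661.

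The other wide distal peaks among the 19 of DESeq2 lay near genes of varied function. The Slc4a4 peak, in an intron of this bicarbonate transporter gene, had 1336 normalized reads as the flox and 726 as the AKO mean. The peak near Nabp1 had 711 and 381, and the one in an intron of Ctcfl 1119 and 624. The peak near Tob2 had 2088 and 1280, the one in an intron of Patj 1327 and 885, and the one near Mir6365 832 and 591. At all of these except Mir6365 the groups did not overlap. Among the 19, groups were apart at 17, and 15 overlapped an inguinal peak.

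The gene lists below were chosen with earlier results of these data known, so their counts and calls are descriptive and cannot test for enrichment. Of 30 thermogenic and brown fat genes, 10 had wide distal peaks, 13 in all. The groups did not overlap at 7, all with lower AKO values, where 18.7% of all members and 8.84% of all peaks were lower in this way. Fitted log2 differences were below 0 at 12 of the 13, as they were at 59.1% of all members. Their median was -0.24, or -0.17 without PC1, against 0.01 over all peaks. No peak of the list was called by limma. DESeq2 called the pair at Ucp1. At Cidea, a lipid droplet protein abundant in brown fat, the peak at -14613 bp from the start site held 2276 ± 276 normalized reads in the flox mice and 1540 ± 163 in AKO mice (mean ± SD, n = 3 each). At Ppargc1b, a coactivator of mitochondrial genes, the peak held 2909 ± 462 and 2031 ± 229. The Adrb3 peak nearest to the start site of this β3-adrenergic receptor gene held 1119 ± 183 and 794 ± 99.4. The other Adrb3 peak, at -5199 bp, held 465 ± 94.1 and 413 ± 36.4 with overlapping groups. With PC1 in the model, the fitted log2 differences at Cidea, Ppargc1b and the nearer Adrb3 peak were -0.37, -0.26 and -0.22. Their unadjusted limma p was 0.0841, 0.215 and 0.269. In the same list the Acot11 peak held 689 ± 42.1 and 804 ± 97.7, the only one with a fitted difference above 0.

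Of 42 genes of lipid synthesis, storage and lipolysis, 16 had 21 wide distal peaks. At 8 of these the groups did not overlap, all with lower AKO values, again beside 18.7% of all members and 8.84% of all peaks. The median fitted log2 difference was -0.10, and -0.34 without PC1. Both upstream peaks of Dgat2 were among the 8, with 871 ± 15.9 against 655 ± 21.9 and 717 ± 49.7 against 475 ± 69.4 normalized reads (mean ± SD, n = 3 each). DESeq2 called the second of these (adjusted p = 0.0844) and no other peak of the list. At Lpl, which frees fatty acids from lipoproteins, the upstream peak held 363 ± 18.3 and 239.5 ± 38.5, while the one 27710 bp downstream held 688 ± 242 and 568 ± 55.2 with overlapping groups. Both intronic peaks of Cd36, a fatty acid transporter, overlapped between the groups, with means of 287 against 206 and 387 against 295. The peaks at Fasn and Mlxipl, genes of fatty acid synthesis and its control, had fitted log2 differences between -0.16 and -0.01.

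Of 39 genes of hormone and nutrient signalling, 15 had 19 wide distal peaks, and at 6 the AKO values were lower without overlap (18.7% of all members, 8.84% of all peaks). Besides the peaks of Ppp2r1b and Pfkfb3, DESeq2 called the peak of Ppp1r3b, a subunit that guides a phosphatase to glycogen (adjusted p = 0.0997). It held 1947 ± 99.2 normalized reads in the flox mice and 1325.5 ± 65.2 in AKO mice (mean ± SD, n = 3 each). The median of the list was -0.08, and -0.24 without PC1. At Mrap, which carries the melanocortin 2 receptor to the cell surface, the peak lay in an exon of Urb1 and held 1373.5 ± 64.3 and 1168 ± 116 with no overlap. Its fitted log2 difference with PC1 was -0.21 ± 0.190 (SE). The Prkar2b peaks overlapped between the groups.

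Of 35 adipocyte transcription factor genes, 7 had 10 wide distal peaks, with lower AKO values and no overlap at 3 (18.7% of all members, 8.84% of all peaks) and a median of -0.21, or -0.22 without PC1. Those 3 lay at Klf9 (2125 ± 389.6 against 1347 ± 243 normalized reads), Ebf1 (902 ± 75.3 against 655 ± 133) and Zeb2 (478 ± 26.4 against 396 ± 56.6, mean ± SD, n = 3 each). With PC1 in the model, the fitted log2 differences at Klf9, Ebf1 and Zeb2 were -0.29 ± 0.173, -0.30 ± 0.233 and -0.07 ± 0.177 (SE). Both peaks of Nr4a2 and both of Ebf3 overlapped between the groups. Of 19 circadian clock genes, 5 had 1 peak each, with a median of -0.08, or -0.25 without PC1. The groups were apart, with lower AKO values, at 2 (18.7% of all members, 8.84% of all peaks), those of Dbp (1063 ± 32.3 against 871 ± 113) and Nr1d1 (2076 ± 231 against 1634.6 ± 280.0). Fitted with PC1, the log2 differences at Dbp and Nr1d1 were only -0.20 ± 0.193 and -0.06 ± 0.177 (SE). The list made for secreted factors of adipocytes had 22 genes, among them Nnat, which is not a secreted factor gene. Of these, 6 had 1 peak each, at Fgf1, Fgf9, Gdf15, Nnat, Retn and Vegfa. The groups overlapped at all 6, with a median of -0.03, or -0.01 without PC1. No list had a peak with higher AKO values and no overlap, and limma called no peak in any of them.

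**Figure D4:**
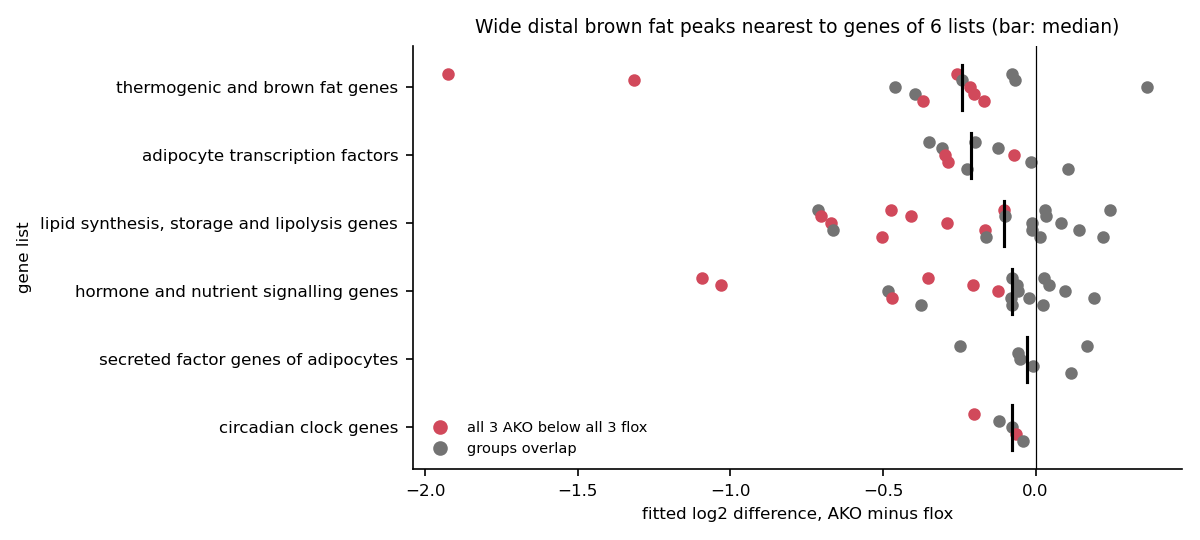
Fitted log2 difference between AKO and flox brown fat (x axis) for each wide distal peak annotated to a gene of 6 lists (rows). Red points have all 3 AKO values below all 3 flox values, grey points have overlapping groups, and black bars are list medians. The medians run from -0.24 for thermogenic genes to -0.03 for secreted factors. Without PC1 their order differs, and the lipid list is lowest at -0.34.

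Inguinal fat had a peak over 1008 of the 1231 wide distal brown fat peaks, or 81.9% (95% Wilson interval 79.6 to 83.9, which covers counting error only). The share was 44.0% for narrower distal and 90.4% for start site peaks. Among distal peaks it was 22.1% below 300 bp, 78.2% at 1500 to 1999 bp and 100% for the 36 peaks of 3000 bp or more. The inguinal peaks were narrower, with a median of 853 bp, beside 432 bp for all inguinal peaks. Members were chosen for their width in brown fat, so narrower inguinal peaks can follow from that choice. The part of the lower read numbers of most inguinal samples was not tested. Under a minimum overlap of 50% of the brown fat peak, 33.9% of members had an inguinal peak. Under that rule the share was 34.4% for narrower distal and 80.8% for start site peaks. With an overlap of at least 50% of both peaks it was 33.9% for wide and 31.9% for narrower distal peaks. A share of wide distal peaks far above that of narrower ones was thus seen only with the looser rule of any overlap. The 223 members without an inguinal peak had a median of 351 normalized reads in brown fat, against 626 in the others. Of them, 16.1% were lower in AKO brown fat without overlap, against 19.2% of the members with an inguinal peak.

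At the 1008 inguinal peaks over a wide distal brown fat peak, limma with no covariate called 0 in either direction, as it called 0% of all 39558 inguinal peaks. At an unadjusted p under 0.05, 54 were lower and 65 higher in AKO samples, which are 5.36% and 6.45%, against 7.42% and 7.61% of all inguinal peaks. The groups did not overlap at 104 lower and 101 higher, which are 10.3% and 10.02% of the 1008, against 10.3% and 10.6% of all inguinal peaks. DESeq2 called 15 lower and 6 higher, against 0.569% and 0.493% of all. The median log2 difference was -0.01. These p-values measure the spread between aliquots of 1 pool.

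Of the 194 members that were lower without overlap in AKO brown fat and had an inguinal peak, 26 (13.4%) were also lower without overlap in inguinal fat, and 21 (10.8%) were higher. Among all 1008 these shares were 10.3% and 10.02%. The inguinal peak at the Alg9 intron held 343, 219 and 362 in flox and 228, 198 and 181 in AKO aliquots, with overlapping groups (adjusted p = 0.281 in limma and 0.0479 in DESeq2). The inguinal peak at Pfkfb3 held 96.2, 50.03 and 88.7 against 51.9, 87.9 and 63.1, also with overlap. At the Slc4a4 peak the inguinal means were 58.0 normalized reads for flox and 81.5 for AKO, with all AKO aliquots above the flox aliquots, the reverse of brown fat, and no call in either test (adjusted p = 0.217 in limma and 0.355 in DESeq2). The inguinal peak there covers only a small part of the 2209 bp brown fat peak.

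**Figure D5:**
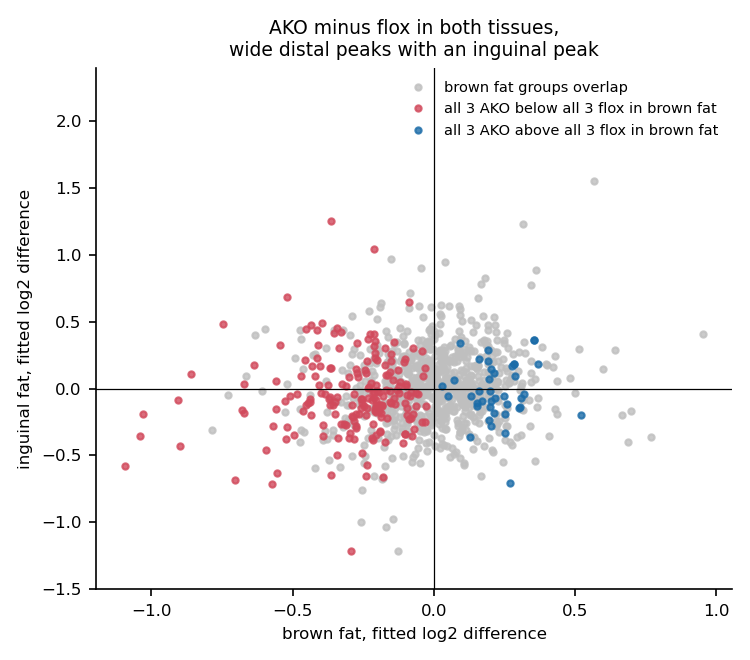
Fitted log2 difference between AKO and flox in brown fat (x axis) and inguinal fat (y axis) for the 1008 wide distal peaks with an inguinal peak. Red points have all 3 AKO values below all 3 flox values in brown fat, blue points above, and grey points overlap. Red points spread to both sides of 0 on the y axis, with 26 lower and 21 higher without overlap in inguinal fat.

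Sequence words of transcription factors were counted in the central 500 bp of every peak, on both strands. DR1 matches were in 11.1% of wide distal peaks, 11.3% of narrower distal, 4.73% of start site and 9.68% of all peaks. The word of oestrogen-related receptors, TCAAGGTCA, which shares the AGGTCA half-site with DR1, was in 2.92%, 1.69%, 0.605% and 1.40% in the same order. The C/EBP word TTGCNNAA was in 20.3%, 23.8%, 10.8% and 21.9%. The AP-1 word TGANTCA was in 12.6%, 15.8%, 6.12% and 13.7%, and the CTCF core CNAGNNGGC in 30.5%, 32.7%, 45.0% and 34.2%. The EBF word, TCCC and GGGA with 2 bases between them, was in 1.79%, 3.72%, 2.49% and 3.36%. The NF1 word, TTGGC and GCCAA with 5 bases between them and up to 1 mismatch, was in 1.46%, 3.16%, 1.18% and 2.67%. These shares were not tested between classes.

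Over its whole length a wide peak offers more room for such words, so each was also set beside a stretch of the same width 10000 bp away that overlapped no peak, which 922 members had. The stretches were matched for width and not for GC content or repeats, and the part of base content in these shares was not tested. DR1 matches were in 37.5% of the peaks and 24.4% of these stretches, C/EBP words in 58.9% and 50.3%, CTCF cores in 76.1% and 51.7% and NF1 words in 8.46% and 3.80%. EBF words were in 9.002% and 5.42%, and the word of oestrogen-related receptors in 9.11% and 7.27%. AP-1 words were in 38.0% and 43.5%, the one word with a lower share in the peaks. Among the 230 members lower without overlap in AKO mice, 46.1% held a DR1 match anywhere in the peak, against 35.9% of the other members, and 67.0% against 57.6% held a C/EBP word. For the word of oestrogen-related receptors these shares were 13.0% and 7.59%, for AP-1 words 43.5% and 39.8%, for NF1 words 8.70% and 7.79%, for CTCF cores 77.0% and 77.5% and for EBF words 8.26% and 10.4%. In the central 500 bp, which takes out the width, they were 13.5% and 10.6% for DR1, 22.2% and 19.9% for C/EBP and 3.04% and 2.90% for the word of oestrogen-related receptors. For AP-1 words they were 14.8% and 12.1%. The other words went the other way, with 25.7% and 31.7% for CTCF cores, 0.870% and 1.998% for EBF and 1.304% and 1.4985% for NF1. These differences were not tested. A word in a peak is a description of its sequence and does not show that the factor binds there.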

How the data were processed

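ATAC-seq covered single brown fat samples from 3 mice of each genotype and 3 aliquots of pooled inguinal fat per genotype. Per the submitters' processing notes, the tools were FastQC, BWA 0.7.17-r1188, SAMtools, Picard 2.8.14, MACS2 2.1.1.20160309, bedtools 2.27.1 and DESeq2 1.20.0, with the mm10 build. The deposited values are a signal per peak, the reads that the authors counted in each peak divided by a DESeq2 size factor of the sample, in 1 table per tissue. The authors' fold changes, standard errors, p-values and mean values in the same tables were not used, and 0 columns of other samples were present. Multiplying by the size factor gave whole reads for 100% of values (tolerance 0.001).

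Groups were taken from the labels. Values were tested as log2(value + 1) with limma 3.58.1 in R 4.3.3, over all peaks of a tissue, two-sided, with PC1 in the brown fat model, and p-values were adjusted by Benjamini-Hochberg and called under 0.1. Fold changes are on that scale. DESeq2 1.42.0 and edgeR 4.0.16 were run on the recovered reads as alternatives. With PC1, DESeq2 called 127 peaks lower and 47 higher of 58558, and edgeR 67 and 17. An exact permutation test of 3 against 3 cannot go below p = 0.1, so none is given. The scripts were tested on simulated data. Overlaps, words and figures used bedtools 2.31.1, Python 3.11.15, matplotlib 3.10.9, scipy 1.17.1, pandas 2.3.3 and numpy 2.4.6.

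Named peaks were the 10 with the lowest p in each direction, the widest and those with most reads per kb, the peaks of the 20 genes with most members, peaks of 6 gene lists and the DESeq2 calls. A few of these are not reported here. The members and lists were chosen with earlier results of these data known. Other settings, among them other scalings, widths and overlaps, were run as alternatives.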

Additional observations from a re-analysis of the deposited data

Results flagged for a closer look

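The Slc4a4 peak 42380 bp downstream of the start site had fitted differences of opposite sign in the tissues. Its fitted log2 difference between AKO and flox was -0.75 in brown fat, with all 3 AKO mice below all 3 flox mice, and 0.49 in inguinal fat, with all 3 AKO aliquots above all 3 flox aliquots. The inguinal difference did not pass (adjusted p = 0.217 in limma and 0.355 in DESeq2) and rests on aliquots of 1 pool per genotype. The inguinal peak, chr5:88929797-88930130, covers only a small part of the 2209 bp brown fat peak, chr5:88928536-88930744. It held 53.4 to 90.9 normalized reads per aliquot, so the values compare unlike stretches. Of the 194 members lower without overlap in brown fat that had an inguinal peak, 10.8% were higher without overlap there, beside 10.02% of all 1008. The difference between the tissues was not tested. Groups of 3 samples were not examined for single outlying samples.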

How the results depend on the processing

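The limma count of called wide distal peaks was 0 in both tissues under every limma setting with log2 values except limma-trend, which called 11 lower in brown fat. DESeq2 with PC1 called 19 lower, DESeq2 without PC1 37 (of 303 lower and 300 higher among all 58558 peaks) and edgeR 14, and in inguinal fat DESeq2 called 15 lower and 6 higher. The median log2 difference in brown fat, -0.047 as reported, was -0.107 without PC1 and -0.102 in DESeq2 without PC1, and leaving out 1 mouse at a time it ran from -0.087 to 0.0088. The counts without overlap ran from 271 to 373 lower and from 71 to 178 higher. They were 84 and 8 at a width of at least 2000 bp and 544 and 261 at 1000 bp. Genes with at least 2 peaks fell from 121 to 22 at 2000 bp, and the read shares to 2.92% in flox and 2.85% in AKO mice. An overlap of at least 50%, of the brown fat peak or of both peaks, left 33.9%, beside 34.4% and 31.9% of narrower distal peaks. In the central 1000 bp, DR1 was in 21.1%, the oestrogen-related receptor word in 4.47%, EBF in 3.98%, C/EBP in 37.0%, NF1 in 3.33%, CTCF in 53.1% and AP-1 in 24.7%, and DR1 with at most 1 mismatch was in 1.54%. The cause of these changes was not tested beyond the larger windows, other widths and fewer mice themselves. Among peaks with under 10% of recurring 32-base words, a choice made after seeing the data, 213 were lower and 50 higher.

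The replicate numbers did not pair the samples: deviations of same-numbered brown fat samples correlated at 0.49, 0.06 and -0.24, and of inguinal samples at -0.04, -0.05 and -0.06. With the replicate block, the median in brown fat was -0.085 with PC1 and -0.107 without, and limma called no wide distal peak in either tissue. Depth limits AKO 2 most, with a median of 272 reads over members against 1156 in flox 1.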
